A study of Mus musculus with 6 samples.

Results

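The 31 genes described here encode the enzymes that make cholesterol and fatty acids, the proteins that regulate those enzymes, and a few proteins that carry, export or degrade cholesterol. They were chosen by name from a fixed list, and every non-control probe carrying 1 of the names was taken. All 31 names were found on the array, with 46 probes among 39429, and all 31 genes were among the 22565 genes tested. The samples were brain tissue of male C57BL/6N mice, 3 from Pla2g2e-/- mice and 3 from wild-type mice, with 1 sample on each 1-colour Agilent array. The enzyme lost in the knockout, PLA2G2E, is a phospholipase A2 that cells secrete and that cleaves fatty acids from phospholipids. By title and description all 6 samples were sham-operated, whereas the treatment text of each describes 60 min of middle cerebral artery occlusion. The groups here follow the titles, and which text is right cannot be told from the labels. The sources give neither the age of the mice nor the brain region. Nor do they state that each sample is a different animal, so the p-values rest on a spread between samples that may be technical.

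Cholesterol does not cross the blood-brain barrier in useful amounts, so the brain makes its own, and oligodendrocytes use much of it for myelin. Synthesis starts from acetyl-CoA, passes through mevalonate and the isoprenoid farnesyl diphosphate to squalene, closes the sterol rings at lanosterol, and ends with a series of changes that turn lanosterol into cholesterol. The transcription factors SREBP-1 and SREBP-2 switch on most of these genes when sterols in the endoplasmic reticulum are low, and SREBP-1 also drives the fatty acid enzymes. Neurons dispose of cholesterol by hydroxylating it, and astrocytes export it on particles that carry apolipoprotein E.

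Values are log2 signals relative to each array's 75th percentile. A level of 0 thus equals the signal below which 75% of spots lie. Probes differ in how well they bind, so levels are compared between samples and not between genes. Differences are knockout minus wild type, with the standard error of limma's fit over all genes. All 31 genes were well above background on all 6 arrays, as were all 10 neuron, 10 astrocyte, 12 oligodendrocyte and 8 microglia markers measured. The arrays held 35288 to 36676 spots well above background of 43020, and 0 saturated spots. Log2 signals correlated at 0.993 to 0.998 within genotypes and at 0.992 to 0.996 between them. Knockout 1 shared a slide with the 3 wild-type samples, and knockout 2 and 3 were on another slide. With 3 arrays per genotype, their number limits how precise any value here can be. Both Pla2g2e probes were dim, and the deleted part of the gene is not given, so the array does not check the genotype labels.

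Differences between genotypes were small along the whole pathway, from -0.33 for Lss to 0.17 for Hsd17b7. In limma with Benjamini-Hochberg adjustment 0 of 31 genes passed an adjusted p of 0.05, with adjusted p-values between 0.267 and 0.983, and 0 of the 22565 genes passed (0%). Without knockout 1, which leaves 1 genotype per slide, 59 of the 22565 genes passed and 0 of the 31 did. At an unadjusted p under 0.05 there were 3 of the 31 genes, Lss, Dhcr7 and Mvd, all lower in knockout. Over all genes that share was 12.4%, with 9.34% lower and 3.1% higher. The 3 genes make up 9.68% of the 31. After normexp the count was 4 of 31, beside 12.6% of all genes, with the slide as a fixed block it was 2, beside 5.31%, and under median centring it was 2, Lss lower and Scap higher, beside 16.8%. In 8 of the 31 genes (25.8%) the 3 knockout values lay all on one side of the 3 wild-type values, against 19.9% of all genes. In 7 of these (22.6%) the knockout values were the lower ones, where all genes gave 12.2%, and in 1, Scap, they were the higher ones, where all genes gave 7.74%. Whether the 31 genes differ from the rest in these shares was not tested.

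In knockout 11 of the 31 genes were higher and 20 were lower, and 35.5% higher compares with 46.3% of all genes. The median difference was -0.06, or -0.03 without wild-type 3, beside -0.01 for all genes. These directions depend on the scaling. When each array was centred on its median in place of the 75th percentile, the median of the 31 genes was 0.06, with 23 of them higher, and that of all genes was 0.10. The median of the 31 genes minus that of all genes was -0.05 under either of these scalings, but -0.0034 after normexp background correction, where the medians were -0.034 and -0.030, and -0.018 without wild-type 3. Within the slide that holds both genotypes 7 of 31 were higher and the median difference was -0.05. That slide holds 1 knockout array, so all values given within it rest on knockout 1 alone. In the fit as reported, which leaves out the slide, the intervals were narrow. For 30 of the 31 genes the 95% interval of the difference lay within a 1.5-fold change either way, which held for 71.6% of all genes. Scd1 was the exception. This count holds for that fit only. With the slide as a fixed block the standard errors were larger, such as 0.096 against 0.073 for Mvd and 0.22 against 0.14 for Cyp51. The difference of Mvd was -0.35 there, and intervals under that block were not counted.

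**Figure D1:**
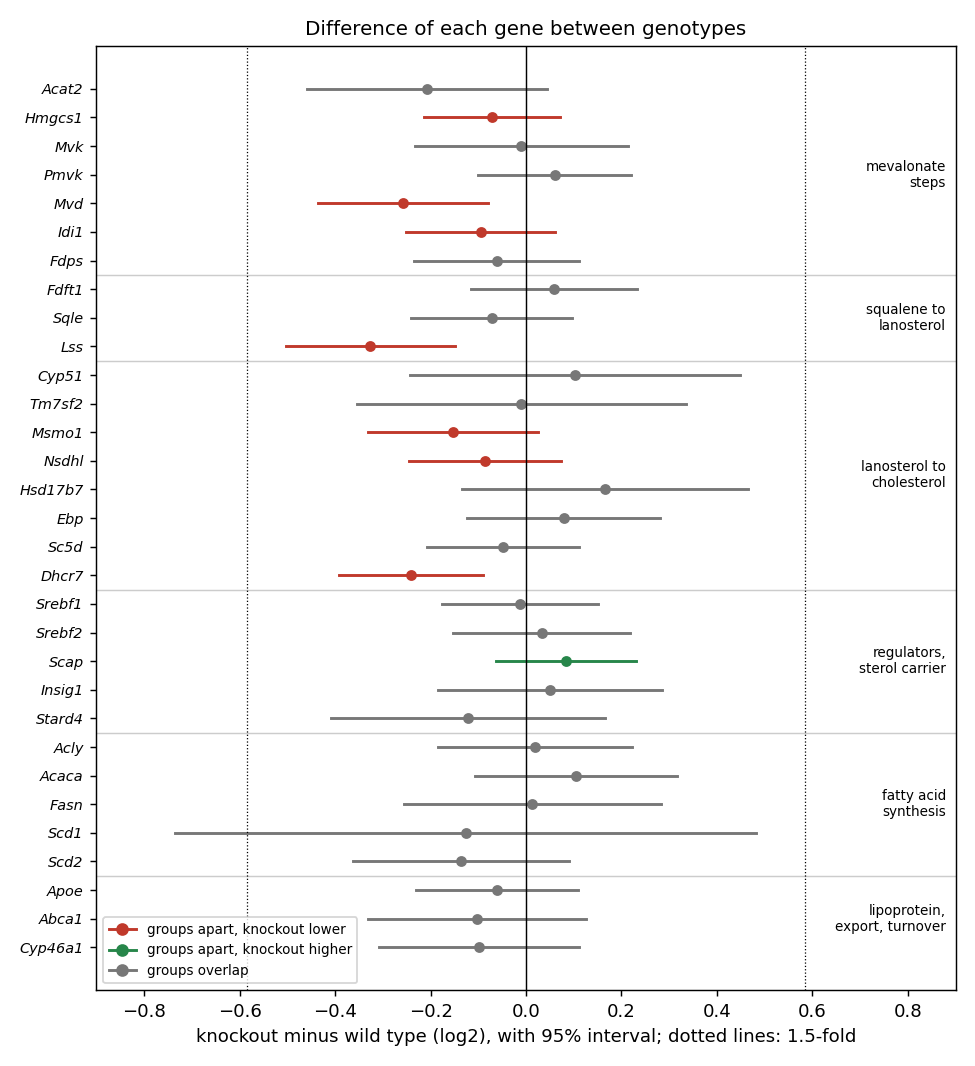
Difference of each of the 31 genes between genotypes, as knockout minus wild type on the log2 scale (horizontal axis), with the 95% interval of limma's fit as bars and the genes in pathway order down the page. Red marks the 7 genes whose knockout values were all lower than their wild-type values, green the 1 gene whose knockout values were all higher, and dotted lines mark a 1.5-fold change. All intervals but that of Scd1 stay inside the dotted lines.

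The first group holds 7 genes that lead from acetyl-CoA to farnesyl diphosphate. In knockout 6 of the 7 were lower, the median difference was -0.07, 0 passed the adjusted test, and 3 had groups that did not overlap. Over all genes 46.3% were higher, and 19.9% had groups that did not overlap, 12.2% with knockout lower. The same shares stand beside the counts of the later groups. Each group is small, and whether any differs from the rest was not tested. The directions in this group depend on the scaling. Under median centring only Acat2 and Mvd of the 7 were lower, where the median of all genes was 0.10. Mvd encodes the decarboxylase that turns diphosphomevalonate into isopentenyl diphosphate. It read -0.98, -0.85 and -0.82 on knockout arrays 1, 2 and 3, against -0.66, -0.66 and -0.55 on wild-type arrays 1, 2 and 3. All 3 knockout samples lay below all 3 wild-type samples, and the gap between the groups, 0.16, was wider than the range within knockout, 0.15, or within wild type, 0.11. The difference was -0.26 ± 0.073 (SE), 1.20-fold lower, with an unadjusted p of 0.0126 and an adjusted p of 0.309 in limma. Within the shared slide it was -0.35.

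Hmgcs1, the cytosolic HMG-CoA synthase and the brightest of the group, read 4.20, 4.25 and 4.25 in knockout and 4.27, 4.30 and 4.35 in wild type. The groups were apart by only 0.02, less than the range within either. The difference of -0.07 ± 0.058 (SE) had an adjusted p of 0.626 in limma. A dimmer probe of the same gene read -5.18, -5.02 and -5.09 in knockout, against -4.84, -5.00 and -4.77 in wild type, a difference of -0.23 with an unadjusted p of 0.0426 in the fit over all probes. Both Hmgcs1 probes were lower in all knockout samples. Idi1, which interconverts isopentenyl and dimethylallyl diphosphate, read 1.96, 2.06 and 2.09 in knockout and 2.12, 2.16 and 2.10 in wild type, again with groups apart by only 0.02. Its difference was -0.09 ± 0.064 (SE), with an adjusted p of 0.563. Under median centring Hmgcs1 and Idi1 changed sign, and Mvd had a difference of -0.14 with an unadjusted p of 0.136, where the median of all genes was 0.10.

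The other mevalonate genes had overlapping groups. Acat2, the cytosolic thiolase that joins a pair of acetyl-CoA molecules, differed by -0.21 ± 0.10 (SE), with -1.99, -1.90 and -2.15 in knockout and -1.92, -1.67 and -1.83 in wild type. Knockout 2 lay inside the wild-type range. Mvk and Pmvk, the kinases that phosphorylate mevalonate in turn, differed by -0.01 ± 0.091 and 0.06 ± 0.065 (SE), and Fdps, which builds farnesyl diphosphate, by -0.06 ± 0.070 (SE).

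Of the 3 genes between farnesyl diphosphate and lanosterol 2 were lower, with a median of -0.07, and 0 passed the adjusted test. Lss, lanosterol synthase, folds the squalene chain into the sterol rings. It had the largest difference of the 31 genes in the fit as reported. Its 1 probe was the dimmest of those that stand for the 31 genes. It read -3.41, -3.47 and -3.47 in knockout and -3.01, -3.17 and -3.18 in wild type. The groups lay 0.23 apart, while the knockout samples spanned 0.06 and the wild-type samples 0.17. The difference was -0.33 ± 0.072 (SE), 1.25-fold lower, with a 95% interval of -0.50 to -0.15, an unadjusted p of 0.00408 and an adjusted p of 0.267 in limma. It was -0.29 within the shared slide, -0.22 after quantile normalization and -0.21 after median centring, and it stayed lower under all 18 alternatives of the processing. Its rank varied. Mvd had -0.35 within the shared slide and -0.25 after quantile normalization, and Dhcr7 had -0.43 with all tested probes of a gene averaged. Sqle, the squalene epoxidase and the brightest of the 3, read 2.72, 2.83 and 2.84 in knockout and 2.83, 2.84 and 2.94 in wild type. These groups overlapped, and the difference was -0.07 ± 0.068 (SE). Fdft1, squalene synthase, differed by 0.06 ± 0.071 (SE), and its other probe was higher too.

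**Figure D2:**
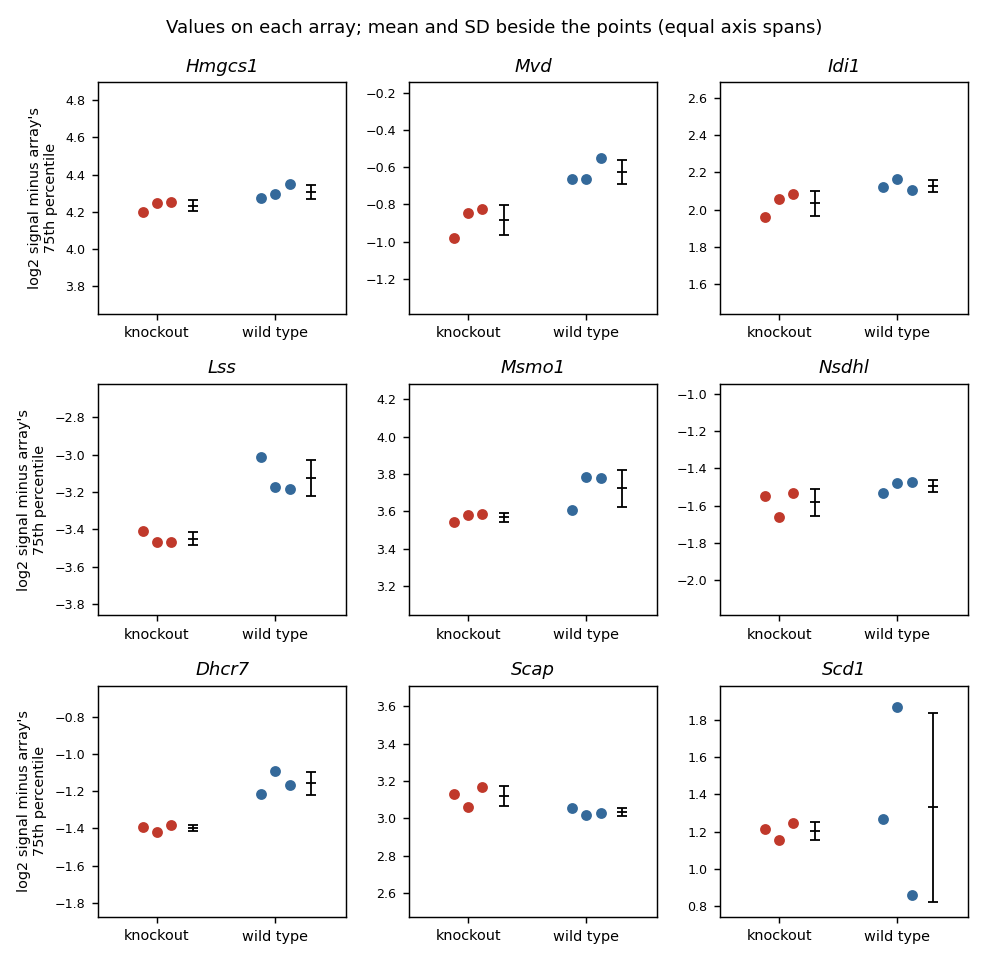
Values of 9 genes on each array, as log2 signal minus the array's 75th percentile (vertical axis), with knockout arrays 1 to 3 in red, wild-type arrays 1 to 3 in blue, and the mean and SD beside the points. All panels span the same number of log2 units. Dhcr7 and Lss show tight knockout samples under all wild-type samples, Nsdhl groups that nearly touch, and Scd1 wild-type samples between 0.86 and 1.87.

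SREBPs bind sterol regulatory elements close to the start of many of these genes, usually beside sites of the CCAAT-binding factor NF-Y and of SP1. Promoter windows of 250 bases before to 50 bases after the transcription start were available from RefSeq (GRCm38.p6) for 25 of the 31 genes. The sterol regulatory element core TCACNCCAC, searched on both strands, was found in 1 of the 25, Hmgcs1 (4%), and in 1.44% of all 27025 genes with a window. Its first base lies at -137 from the start on the sense strand. The windows of Hmgcs1, Mvd and Lss up to the start are printed here because Hmgcs1 holds the core, and Mvd and Lss are the genes of smallest p with 1 window each. Capitals mark the core TCACCCCAC, CCAAT boxes (CCAAT or its complement ATTGG) and GC boxes (GGGCGG or its complement CCGCCC).
Hmgcs1, chr13:119690101-119690350, plus strand: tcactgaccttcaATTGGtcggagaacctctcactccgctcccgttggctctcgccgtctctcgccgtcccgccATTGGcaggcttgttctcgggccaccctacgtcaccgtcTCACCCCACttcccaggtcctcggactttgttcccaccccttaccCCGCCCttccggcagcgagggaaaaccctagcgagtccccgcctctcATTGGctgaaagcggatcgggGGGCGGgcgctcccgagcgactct
Mvd, chr8:122443423-122443672, minus strand: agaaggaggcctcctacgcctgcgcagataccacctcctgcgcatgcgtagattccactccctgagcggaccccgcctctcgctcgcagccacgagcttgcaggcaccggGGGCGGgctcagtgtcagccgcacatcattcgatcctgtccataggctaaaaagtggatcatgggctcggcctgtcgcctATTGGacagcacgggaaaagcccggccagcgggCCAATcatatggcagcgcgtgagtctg
Lss, chr10:76531355-76531604, plus strand: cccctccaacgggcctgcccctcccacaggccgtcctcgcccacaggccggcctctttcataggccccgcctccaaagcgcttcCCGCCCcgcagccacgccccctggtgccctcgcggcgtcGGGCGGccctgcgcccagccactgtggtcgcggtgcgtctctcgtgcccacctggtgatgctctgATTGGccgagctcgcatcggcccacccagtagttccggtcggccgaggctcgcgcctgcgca
In these 250 bases Hmgcs1 holds 3 CCAAT boxes and 2 GC boxes, Mvd 2 CCAAT boxes and 1 GC box, and Lss 1 CCAAT box and 2 GC boxes.

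Over the whole windows the CCAAT box was present in 20 of the 25 genes (80%) and in 41.1% of all genes, and the GC box in 21 of 25 (84%) and in 38.2%. These 2 shorter motifs, and the printing of the Mvd and Lss windows, were chosen after the values were seen. Genes with several starts were counted once, if any of their windows held the motif. All genes here means all 27025 with a window, whether or not they were seen on these arrays. The genes described here were all well above background, so the shares do not compare like with like. Whether other genes seen in brain hold the motifs as often was not tested. Fdps, Fdft1, Sqle, Stard4, Scd1 and Scd2 had no window in the table used. A match says only that the letters are present. Other forms of the sterol regulatory element were not searched, so a window without this core may still hold one.

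Of the 8 genes that turn lanosterol into cholesterol, 3 were higher and 5 were lower in knockout, with a median of -0.03, and 0 passed the adjusted test. Dhcr7, the 7-dehydrocholesterol reductase of the last step, read -1.39, -1.42 and -1.38 in knockout and -1.21, -1.09 and -1.17 in wild type. The knockout samples spanned 0.03 and lay 0.17 below the lowest wild-type sample. The difference was -0.24 ± 0.062 (SE), 1.18-fold lower, with an unadjusted p of 0.00805 and an adjusted p of 0.291 in limma, and it was -0.24 within the shared slide. Under median centring it was -0.12, with an unadjusted p of 0.204. A second, dimmer probe, designed on an Ensembl transcript, read -6.56, -6.39 and -6.42 in knockout, against -5.97, -6.12 and -5.45 in wild type. That probe had a difference of -0.61 ± 0.18 (SE), with an unadjusted p of 0.0153 and an adjusted p of 0.324 over all probes, so both Dhcr7 probes were lower in all 3 knockout samples.

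Msmo1, the C4-methyl sterol oxidase and the brightest of the group, read 3.54, 3.58 and 3.58 in knockout and 3.61, 3.78 and 3.78 in wild type. The knockout samples lay within 0.04 of each other, and wild-type 1 lay only 0.02 above them, well under the other wild-type samples. Its difference was -0.15 ± 0.072 (SE; unadjusted p = 0.0789, adjusted p = 0.442). The unadjusted p in limma was 0.0451 after normexp and 0.0333 after quantile normalization. Under median centring the difference was -0.04, with an unadjusted p of 0.710. Nsdhl, which takes part in the same removal of methyl groups from carbon 4, read -1.55, -1.66 and -1.53 in knockout and -1.53, -1.48 and -1.47 in wild type. Knockout 3 and wild-type 1 differed by 0.0005 there, so the groups nearly touched, and under median centring the sign changed. The difference of its probe was -0.09 ± 0.065 (SE), and its dimmer probe had -0.14 with groups that did not overlap.

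Hsd17b7, the sterol 3-ketoreductase that completes the removal of those methyl groups, had the largest positive difference in the fit as reported. It read -0.89, -0.60 and -0.77 in knockout and -0.84, -0.79 and -1.12 in wild type. The groups overlapped widely, and wild-type 3 was the lowest sample. The difference was 0.17 ± 0.12 (SE), with an adjusted p of 0.596 in limma. Without wild-type 3 it was 0.06, and within the shared slide it was 0.03. Its 2 dimmer probes had 0.09 ± 0.095 and -0.01 ± 0.13 (SE), the first with a knockout mean of -1.65 and a wild-type mean of -1.75, and the second with -5.70 and -5.69. The probes thus differed in sign, and none of them by more than 1.5 times its error. Cyp51, the lanosterol demethylase, differed by 0.10 ± 0.14 (SE) and Ebp, the sterol isomerase, by 0.08 ± 0.083 (SE). Sc5d, the lathosterol oxidase, differed by -0.05 ± 0.065 (SE) and Tm7sf2, a sterol C14-reductase, by -0.01 ± 0.14 (SE). In Cyp51 and Tm7sf2 the knockout samples spanned 0.20 and 0.18, and the wild-type samples spanned 0.49 and 0.50.

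**Figure D3:**
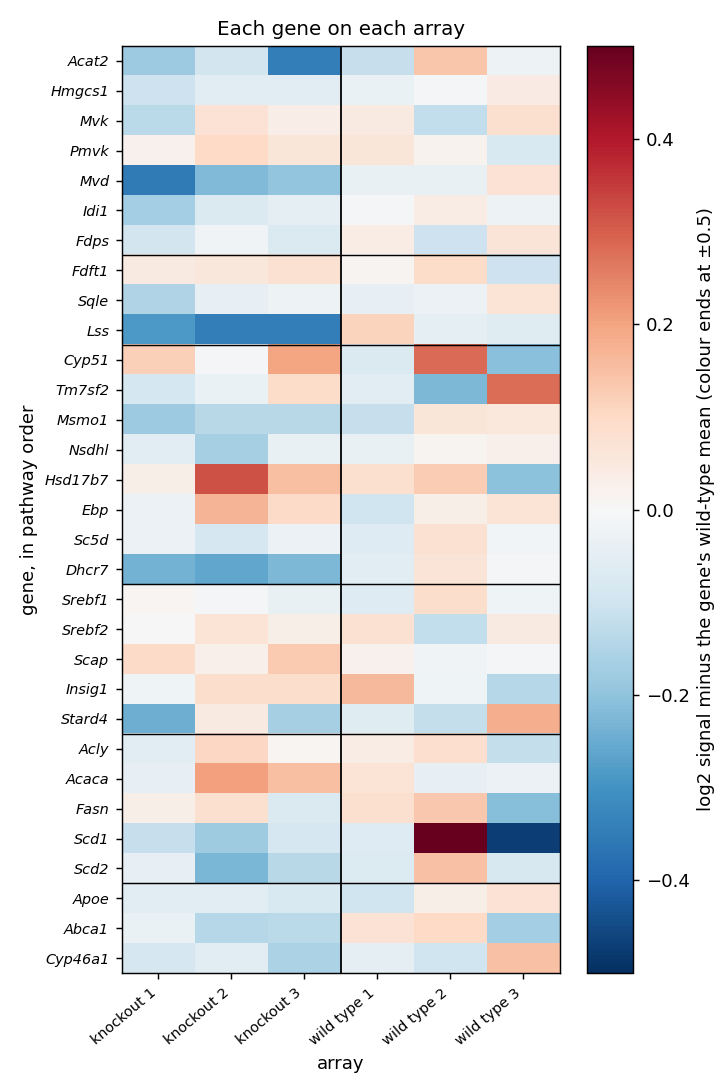
Each of the 31 genes (rows, in pathway order, with lines between the role groups) on each array (columns, knockout left of wild type), coloured by log2 signal minus the gene's wild-type mean, with colours ending at 0.5 either way. Mvd, Lss and Dhcr7 are blue on all 3 knockout arrays, and Scd1 on wild-type 2 and wild-type 3 carries the deepest colours of the map.

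The 5 regulators and sterol carriers stayed close to their wild-type levels, with 3 higher, 2 lower and a median difference of 0.03. Scap escorts SREBPs from the endoplasmic reticulum to the Golgi, where they are cut. It read 3.13, 3.06 and 3.17 in knockout and 3.06, 3.02 and 3.03 in wild type, and knockout 2 was only 0.0054 above wild-type 1. The difference of 0.08 ± 0.060 (SE; unadjusted p = 0.207, adjusted p = 0.581) was 0.09 within the shared slide. Srebf1 and Srebf2, which encode the SREBPs, differed by -0.01 ± 0.066 and 0.03 ± 0.075 (SE). Insig1, which holds SCAP in the endoplasmic reticulum when sterols are high, differed by 0.05 ± 0.096 (SE). Stard4, a carrier of cholesterol between membranes, read 0.11, 0.40 and 0.19 in knockout and 0.29, 0.23 and 0.53 in wild type, with a difference of -0.12 ± 0.12 (SE). A second, dimmer Stard4 probe that spans an intron had 0.06 ± 0.20 (SE), with -5.13, -5.13 and -4.92 in knockout and -4.84, -5.56 and -4.97 in wild type. Groups overlapped on both Stard4 probes.

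The 5 fatty acid genes had 3 higher, 2 lower and a median of 0.01, and in all 5 the groups overlapped. Scd2, the main stearoyl-CoA desaturase of the brain and the brightest of the group, read 5.47, 5.28 and 5.37 in knockout and 5.44, 5.66 and 5.43 in wild type. Its difference was -0.14 ± 0.092 (SE; adjusted p = 0.566). Within the shared slide it was -0.04. With 1 array left out it lay between -0.18 and -0.06, the smallest difference being that without wild-type 2. Knockout 1 lay inside the wild-type range and the other knockout samples lay below it. Acly, which supplies cytosolic acetyl-CoA from citrate, and Fasn, the fatty acid synthase, differed by 0.02 ± 0.083 and 0.01 ± 0.11 (SE).

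Acaca encodes acetyl-CoA carboxylase 1, which makes the malonyl-CoA for fatty acid synthesis, and it was measured by 4 probes. The brightest read 2.42, 2.67 and 2.61 in knockout and 2.53, 2.42 and 2.43 in wild type, a difference of 0.10 ± 0.086 (SE; adjusted p = 0.633). The high values were those of knockout 2 and 3, which share a slide, and within the slide that holds both genotypes the difference was -0.04. A probe mapped a single base further along, with other last bases, had 0.07 ± 0.090 (SE). The 2 others lie elsewhere in the gene and were dim, with 0.11 ± 0.15 and -0.02 ± 0.14 (SE). The probe with 0.11 read -5.65, -5.48 and -5.75 in knockout and -5.45, -5.89 and -5.88 in wild type. The probe with -0.02 read -4.02, -3.86 and -4.37 in knockout and -4.05, -4.09 and -4.05 in wild type. Neither separated the genotypes.

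Sequences of 3 dimmer probes of Acaca and Hsd17b7, genes with probes of both signs, are given to show what was read. The Hsd17b7 probe printed has the sign of the brightest one, and the probe of that gene with -0.01 is not printed. The differences of these 3 probes lay within about 1 SE of 0 and of the brightest probe of their gene. The sequences are as in the files, on the strand of the transcript, with mm9 positions and no letters in capitals.
Acaca, difference 0.11, chr11:84211638-84211697, plus strand: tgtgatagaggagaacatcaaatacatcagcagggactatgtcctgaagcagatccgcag
Acaca, difference -0.02, chr11:84009021-84009080, plus strand: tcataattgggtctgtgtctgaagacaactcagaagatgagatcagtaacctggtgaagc
Hsd17b7, difference 0.09, chr1:171883182-171883241, minus strand: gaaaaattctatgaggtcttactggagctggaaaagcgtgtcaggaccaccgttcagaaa
The exon under each probe is not given, for want of a gene annotation of that build here.

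**Figure D4:**
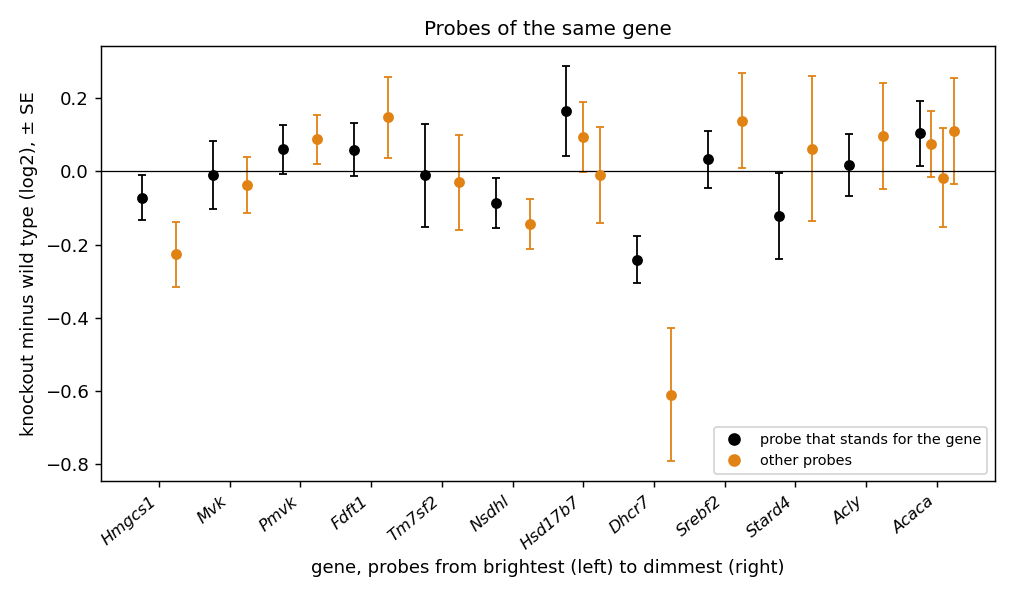
Difference of each probe (knockout minus wild type, log2, with SE as bars) for the 12 genes that have more than 1 probe, from the brightest probe on the left to the dimmest on the right within each gene. Black marks the probe that stands for the gene and orange the others. Hsd17b7, Stard4 and Acaca have probes on both sides of 0, and the dim Dhcr7 probe is the lowest of all.

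Scd1, another stearoyl-CoA desaturase, was the least precise of the 31 genes and is described here because its interval was the widest. It read 1.22, 1.15 and 1.25 in knockout and 1.27, 1.87 and 0.86 in wild type. The knockout samples lay within 0.09 of each other, between wild-type 3 and wild-type 1, while the wild-type samples spanned 1.01. The difference was -0.13 ± 0.25 (SE), with a 95% interval of -0.73 to 0.48, and it was 0.14 without wild-type 2 and -0.36 without wild-type 3. Myelin-forming oligodendrocytes are a source of desaturase transcripts, and 12 of their markers were measured, 11 lower and 1, Mbp, higher in knockout. Their median level relative to the wild-type mean was -0.02, -0.73 and -0.17 on knockout arrays 1, 2 and 3, and -0.07, 0.54 and -0.46 on wild-type arrays 1, 2 and 3. In wild type the oligodendrocyte markers and Scd1 were thus highest on array 2 and lowest on array 3, whereas knockout 2, with the lowest markers, had a Scd1 level close to those of knockout 1 and 3. In tissue samples fewer cells of a type and less RNA per cell cannot be told apart, and the part of oligodendrocytes in these values was not tested. Of 5 markers of fat cells, which also use Scd1, Adipoq and Lep were not bright enough to be tested, and the 3 others had a median difference of -0.16.

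In the group of lipoproteins, export and turnover all 3 genes were lower, with a median of -0.10, overlapping groups and 0 past the adjusted test. Apoe, the apolipoprotein of brain lipid particles and the brightest of the 3, read 5.97, 5.97 and 5.95 in knockout and 5.92, 6.05 and 6.10 in wild type. The knockout samples lay within 0.03 of each other, inside the wild-type range, and the difference was -0.06 ± 0.069 (SE; adjusted p = 0.730). Abca1, the transporter that loads cholesterol onto such particles, differed by -0.10 ± 0.093 (SE). Cyp46a1, the neuronal cholesterol hydroxylase that starts the removal of cholesterol from the brain, differed by -0.10 ± 0.085 (SE). Under median centring all 3 changed sign.

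The spread within the genotypes differed. In 23 of the 31 genes (74.2%) the SD over wild-type samples exceeded that over knockout samples, as it did in 64.4% of all genes, with median SDs of 0.06 in knockout and 0.10 in wild type for the 31 genes. Without wild-type 3 the wild-type SD was the larger in 16 of 31 (51.6%) and in 48.6% of all genes. Knockout 1 had the highest value of the 6 samples in 0 of the 31 genes and the lowest in 8. Wild-type 3 was often extreme either way, highest in 10 genes and lowest in 9. Wild-type 2 was highest in 12 and lowest in 4, and knockout 2 was highest in 5 and lowest in 5. Markers of striatum, meninges and choroid plexus spread more widely over the arrays. The median of 9 striatum markers lay between -0.89 and -0.80 on the knockout arrays and at -0.28, -0.66 and 1.09 on wild-type arrays 1, 2 and 3, and all 9 were lower in knockout. All 9 markers of meninges and all 8 of choroid plexus were lower as well, with median differences of -0.49 and -0.59. The array medians of both lists overlapped between genotypes. On the knockout arrays they lay between -0.64 and -0.31 for meninges and between -0.89 and -0.11 for choroid plexus. On wild-type arrays 1, 2 and 3 they were -0.04, -0.34 and 0.40 for meninges, and 0.33, -1.07 and 0.63 for choroid plexus. Astrocyte markers, 5 higher and 5 lower, and neuron markers, 6 higher and 4 lower, had list medians within 0.13 of the wild-type mean on all arrays, though single markers moved further, such as Gfap with a difference of -0.45 and Nefh with 0.34. Without wild-type 3, the array highest in striatum, meninges and choroid plexus markers, the differences of Lss, Mvd and Dhcr7 were -0.36, -0.22 and -0.25. The part of tissue composition in the values of the 31 genes was not tested.

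**Figure D5:**
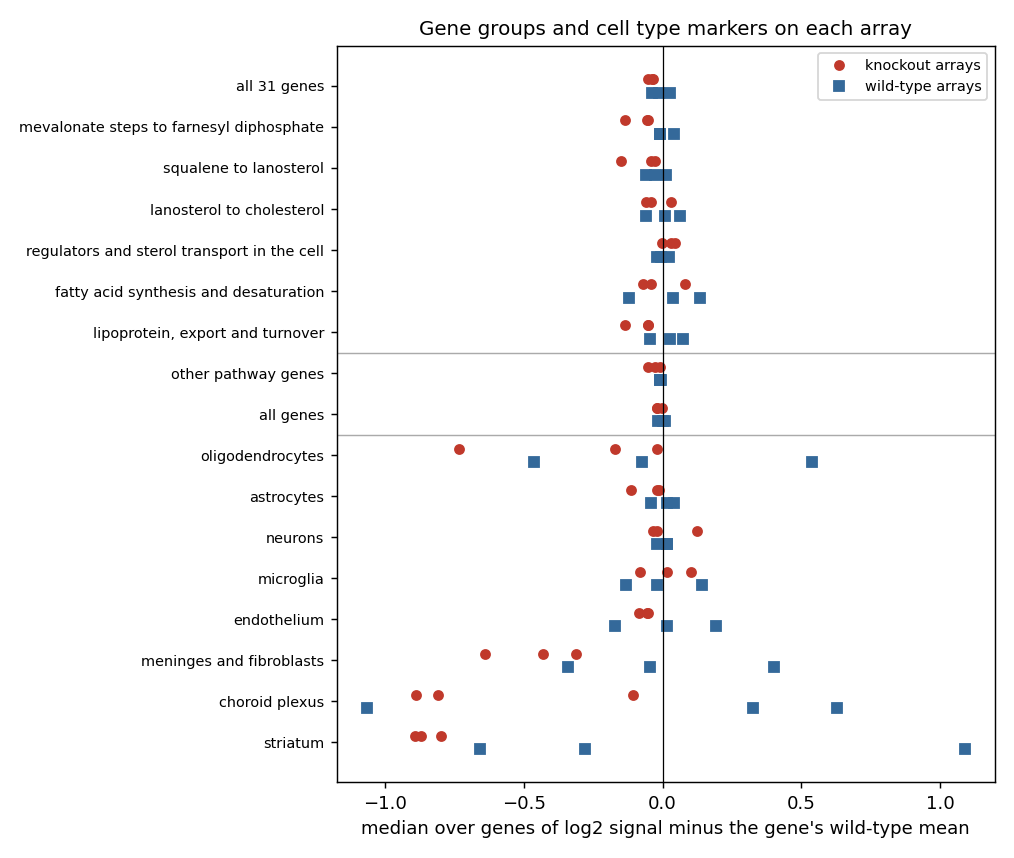
Median over genes of the log2 signal minus the gene's wild-type mean (horizontal axis) on each array, for the 31 genes and their role groups, for the other pathway genes and all genes, and for lists of cell type markers (rows). Circles are the knockout arrays and squares the wild-type arrays. The role groups stay within 0.15 of 0, while markers of oligodendrocytes, meninges, choroid plexus and striatum spread several times as far.

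A further 50 genes of the same pathways were set beside the 31, and 49 of them were tested, 20 higher and 29 lower in knockout with a median of -0.02. In limma 0 of 49 passed the adjusted test. Scd3 and Nr1h2 had an unadjusted p under 0.05 (4.08%, against 12.4% of all genes), and 6 had groups that did not overlap (12.2%, against 19.9% of all genes). Scd3, a desaturase, read -1.81, -1.88 and -1.84 in knockout and -1.59, -1.61 and -1.42 in wild type, with a difference of -0.31 ± 0.074 (SE; unadjusted p = 0.00619, adjusted p = 0.275). Its knockout samples were tightly grouped and all lay below wild type. Nr1h2, which encodes the sterol sensor LXR-beta, read 2.91, 2.86 and 2.90 in knockout and 2.77, 2.77 and 2.66 in wild type, with a difference of 0.16 ± 0.062 (SE; unadjusted p = 0.0445, adjusted p = 0.390). Of the 4 others with separate groups, Insig2, a relative of Insig1, and Rnf139, a ubiquitin ligase that acts on the pathway, had differences of 0.14 ± 0.074 and 0.14 ± 0.064 (SE). Mlxipl, the carbohydrate-responsive factor ChREBP, and Cyp7b1, an oxysterol hydroxylase, had -0.38 ± 0.16 and -0.16 ± 0.082 (SE).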

How the data were processed

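Total RNA from 6 brain samples (200 ng each) was labelled with Cy3, per the labels' protocols. Each spot has 1 intensity in the deposited files, made with Agilent Feature Extraction 12.1.1.1, per the file headers, and already background-subtracted and detrended. The log2 of that signal was taken, minus the 75th percentile of all non-control spots of the array. The 1377 control spots and 68 to 530 spots per array marked as non-uniform or as outliers were left out, and spots of 1 probe were averaged. Of 39429 probes, 31940 were tested, those well above background on all arrays of 1 genotype or both. Gene names are those of the files, updated through RefSeq accessions (29510 probes matched), and 2030 probes without a name were left out. The brightest tested probe stood for a gene (6255 genes had several). Genotypes were compared two-sided with limma 3.58.1 (lmFit, eBayes) in R 4.3.3, with Benjamini-Hochberg adjustment over 22565 genes. The code was tested on simulated data. A permutation test of 3 against 3 cannot give a p under 0.1, so none was used.

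The 31 genes, the further pathway genes, the marker lists and the tests were chosen with earlier results of these data known. All 31 are named; values on each array are given for genes with separate groups, an unadjusted p under 0.05, probes of both signs, or the brightest probe of a role group. The array values of Acat2 and Scd1 were added after they were seen. Some of the further pathway genes are not reported here by name. The alternatives cover background correction, normalization, scaling, filters, probe choice, slide, replicate number as a block, the prior, and each array left out.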

Additional observations from a re-analysis of the deposited data

How the results depend on the processing

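Under all 18 alternatives 0 of the 31 genes passed the threshold, and the smallest adjusted p of any of them was 0.178, without knockout 1. In limma 0 of all genes passed, except without knockout 1, and leaving out 1 array gave 0 to 59. The median difference of the 31 genes was -0.034 after normexp and 0.058 after median centring, where all genes gave 0.10, and leaving out 1 array gave -0.067 to -0.030, the highest without wild-type 3. Of the 31 genes 23 were higher after median centring, 7 with the slide as a fixed block and 7 within the shared slide, and 9 to 13 with 1 array left out. Mvd and Dhcr7 lost their unadjusted p under 0.05 after median centring (0.136 and 0.204), Dhcr7 also with the slide as a fixed block, and Lss and Dhcr7 within the shared slide. Among genes with an unadjusted p under 0.05 the share lower in knockout was 75.1% as reported, 79.9% after normexp, 51.9% after quantile normalization and 28.8% after median centring. With the slide as a fixed block there were 1198 such genes and within the shared slide, where knockout 1 is the only knockout array, 936, against 2807. The replicate numbers are not said to pair the samples. Same-numbered deviations correlated at -0.016, -0.135 and -0.118. With 3 arrays per genotype such deviations are tied to each other, so they cannot show whether samples were paired. With the replicate block 11 of the 31 were higher and their median difference was -0.06. Their smallest adjusted p in limma was 0.374, and 2409 genes had an unadjusted p under 0.05. With the block 0 genes passed the adjusted test, as without it.

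Of 558 differences of single genes 514 kept their sign and 44 did not, and 11 genes kept it under all alternatives, Lss, Mvd, Dhcr7, Msmo1, Acat2 and Scap among them. After normexp Tm7sf2 had 0.0047 and Fasn -0.0045, and after quantile normalization Srebf1 had 0.034 and Acly -0.026. After median centring Hmgcs1 had 0.047, Sqle 0.046, Mvk and Tm7sf2 0.108, Srebf1 0.106, Idi1 0.023, Abca1 0.015, Cyp46a1 0.020, Fdps 0.057, Apoe 0.058, Nsdhl 0.032 and Sc5d 0.071. With the slide as a fixed block, and likewise within the shared slide, Ebp had -0.028, Srebf1 0.011, Srebf2 -0.0016, Insig1 -0.023, Acly -0.058 and Acaca -0.043, and Mvk had 0.0019 under a random slide block. With 1 array left out the sign varied for Mvk (-0.072 to 0.052), Cyp51 (-0.0019 to 0.24), Tm7sf2 (-0.12 to 0.13), Srebf1 (-0.045 to 0.033), Srebf2 (-0.028 to 0.072), Insig1 (-0.021 to 0.13), Acly (-0.042 to 0.060), Fasn (-0.093 to 0.080) and Scd1 (-0.36 to 0.14). The cause of these reversals was not tested. Normexp adds an offset of 50, and dim probes such as the second ones of Dhcr7 and Hmgcs1 are the most open to background treatment.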
